A study of Mus musculus with 53 samples.

Results

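C-type lectin receptors are surface proteins of macrophages and other myeloid cells that bind sugars and related ligands of microbes and of damaged or dying cells. Mannose-binding and galactose-binding members carry their cargo into the cell. Others activate the cell through Syk, either through a motif of their own or through the FcR gamma chain, and those with an inhibitory ITIM motif restrain such signals. 9 genes of the family were followed in mouse bone marrow-derived macrophages (BMDMs), found in the expression tables by gene symbol. They were the mannose receptor Mrc1, the galactose-type lectins Mgl2 and Clec10a, the activating receptors Clec7a, Clec4d, Clec4e and Clec4n, and the inhibitory receptors Clec4a2 and Clec12a, 9 of 23847 loci listed.

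BMDMs came from wild-type (WT) mice and from mice lacking the transcription factor STAT6 in every cell (Stat6-/-), both on a C57BL/6 background and aged 8-12 weeks. Bone marrow cells were differentiated for 6 days with L929 supernatant as the source of MCSF. They were then given IL-4 at 20 ng/ml for 1, 3, 6 or 24 h, or left as controls for the same times, and further controls were taken at 0 h. PolyA RNA of 53 samples in 18 groups was sequenced. Each WT group held 4 samples, except WT 24 h IL-4 with 3 (replicates 2, 3 and 4), and each Stat6-/- group held 2. Levels are FPKM, fragments per unit of transcript length and of sequenced library, so levels of different genes can be set beside each other per length. Differences are log2 fold changes on the log2(FPKM + 1) scale, which understates the change of low genes. They were tested with limma in 1 fit of all 53 samples over 11146 loci that reached 1 FPKM in at least 1 sample, all 9 receptors among them. A receptor passed the test, and is said to have risen or fallen, when the adjusted p (Benjamini-Hochberg, two-sided, over all tested loci of a comparison) was under 0.05 and the change at least 2-fold.

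The labels were first checked in the data. Stat6 lay between 58.7 and 90.6 FPKM in the 35 WT samples and between 14.3 and 24.0 FPKM in the 18 Stat6-/- samples, so the genotypes did not overlap, although reads were still assigned to the locus. Arg1, an IL-4 target that makes arginase, was at most 0.0635 FPKM in WT controls and 1.90 to 99.3 FPKM in WT IL-4 samples, while Stat6-/- IL-4 samples reached 0.203 FPKM. The sum of 6 macrophage markers was 2600 to 4470 FPKM in all samples, and all markers of T, NK and B cells and fibroblasts stayed below 1 FPKM. A set of 7 neutrophil markers summed to 226-631 FPKM in WT and 597-1090 FPKM in Stat6-/- samples, and 3 monocyte markers to 11.5-211 and 43.9-274 FPKM. Depth per library, estimated from the step between low values, spanned 0.715 to 1.53 times the WT median, which sets the precision of low genes such as Mgl2 in controls.

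The 2 Stat6-/- samples of a group stood apart from each other. Replicate 1 was above replicate 2 in all 9 Stat6-/- groups for Mgl2, Clec10a, Clec7a, Clec4d and Clec4n, with median ratios of 2.96, 1.90, 1.60, 2.04 and 2.27. Clec12a went the other way in all 9 groups, with a median ratio of replicate 2 over replicate 1 of 1.85. Clec4e differed between the replicates by at most 1.08-fold. The summed monocyte markers were 2.21 to 3.33 times higher in replicate 2 in all 9 groups, and the neutrophil markers 1.05 to 1.44 times higher in replicate 1. Their part in the values of the receptors was not tested. In bulk RNA, fewer cells of a type and less RNA per cell cannot be told apart.

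**Figure D1:**
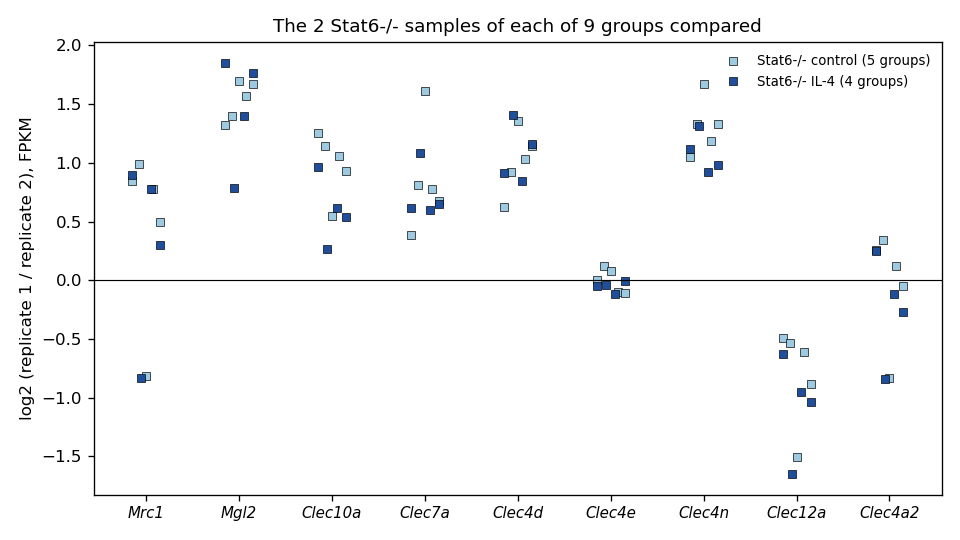
Each square is 1 of the 9 Stat6-/- groups and gives the log2 ratio of replicate 1 to replicate 2 in FPKM (y axis) for each receptor (x axis); light squares are controls and dark squares IL-4. Mgl2, Clec10a, Clec7a, Clec4d and Clec4n lie above 0 in every group, Clec12a below 0 in every group, and Clec4e near 0.

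In resting WT BMDMs the 9 receptors spanned a wide range. At 0 h Clec4d, which pairs with the FcR gamma chain and binds mycobacterial glycolipid, was highest at 409 ± 36.0 FPKM (SD, n = 4), and Clec12a, an ITIM receptor that binds uric acid crystals, followed at 335 ± 23.4 FPKM, with no overlap between their samples. Mrc1 (98.5 ± 25.7 FPKM), Clec4a2 (86.4 ± 12.7), Clec7a (68.8 ± 8.65), Clec4n (51.2 ± 16.2), Clec4e (40.2 ± 7.46) and Clec10a (33.4 ± 4.96) came next, and in this order each overlapped its neighbour in at least 1 sample. Mgl2 was far below the others at 1.82 ± 0.894 FPKM.

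IL-4 turned that order around. After 6 h of IL-4 Mrc1 was highest at 671 ± 11.5 FPKM, then Clec7a at 351 ± 23.7 and Clec10a at 188 ± 19.2 FPKM, and none of these overlapped the next. Clec12a (116 ± 17.2 FPKM), Clec4d (115 ± 9.99), Mgl2 (91.0 ± 13.0) and Clec4a2 (80.3 ± 2.57) formed a middle group in which neighbours overlapped. Clec4n at 20.2 ± 6.82 FPKM and Clec4e at 8.07 ± 1.73 FPKM were last. At 24 h of IL-4 Clec7a (314 ± 6.16 FPKM) and Clec4d (300 ± 78.6) were highest and overlapped, and Clec4e was lowest at 2.96 ± 0.487 FPKM (n = 3 each).

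**Figure D2:**
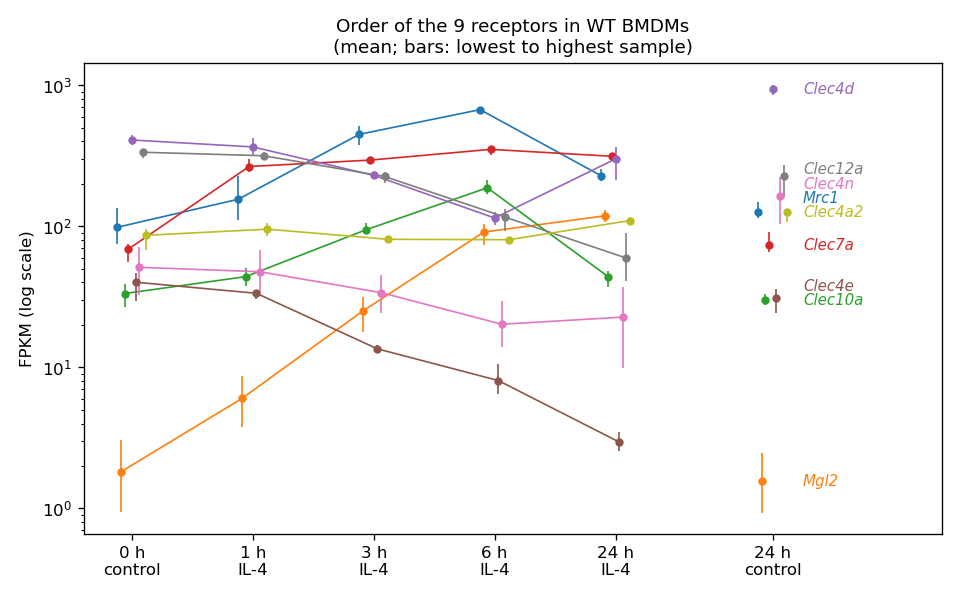
Mean FPKM on a log axis (y) of each receptor in WT BMDMs at 0 h, after 1, 3, 6 and 24 h of IL-4, and in the 24 h control (x); bars run from the lowest to the highest sample, with 3 samples at 24 h IL-4 and 4 elsewhere. Mgl2 climbs from 1.82 to 119 FPKM while Clec4e descends from 40.2 to 2.96 FPKM.

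Against the time-matched controls, 2 of 9 receptors passed the test in WT BMDMs at 1 h, both higher (1.09% of all tested loci were higher and 0.395% lower). At 3 h 5 passed, 4 higher and 1 lower (2.61% and 1.27% of all loci). At 6 h 8 passed, 4 higher and 4 lower (3.18% and 2.36% of all loci), and at 24 h 6 passed, 2 higher and 4 lower (3.91% and 4.58% of all loci). At 6 h the IL-4 and control samples did not overlap for any of the 9, with 4 higher (23.8% of all loci) and 5 lower (22.3%). The median log2 fold change of the 9 was 0.02, -0.26, -0.43 and -0.19 at the successive times, and that of all loci lay between -0.07 and 0.01. Over the times together, 8 of 9 receptors passed at least once, 4 in each direction and none in both, against 12.8% of all loci. From 1 time to the next, the WT response changed past the test for 4 of 9 receptors from 1 to 3 h (1.61% of all loci), for 1 from 3 to 6 h (0.449%) and for 2 from 6 to 24 h (6.06%). Of the 21 passes against controls, 20 held under every other way of fitting the data that was tried. The exception was Mgl2 at 1 h.

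**Figure D3:**
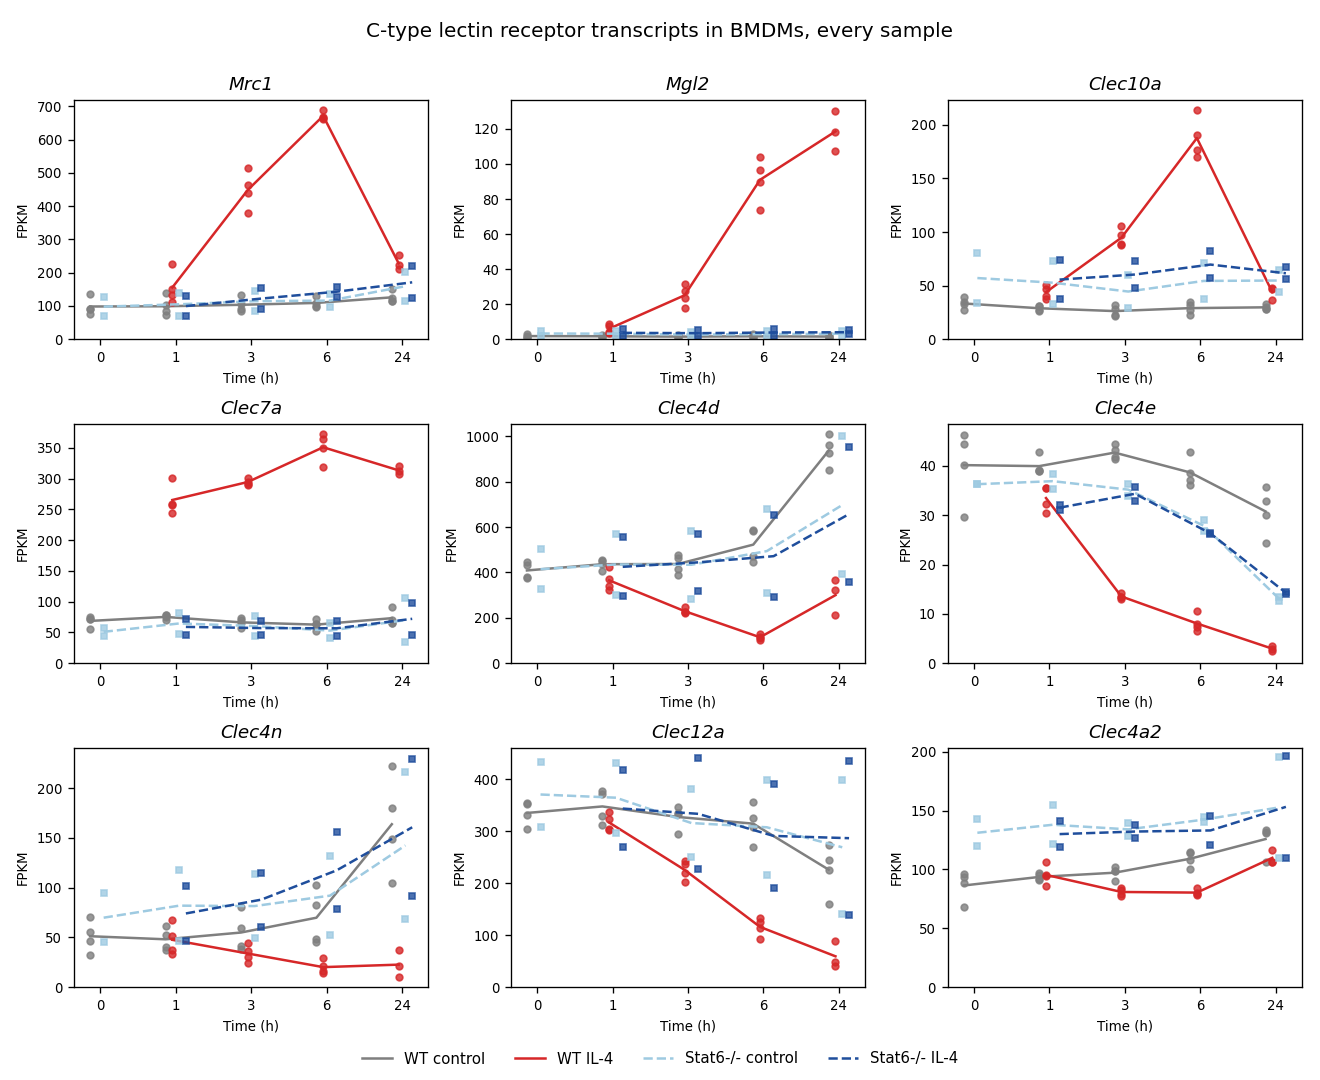
FPKM of each receptor in every sample (points) with group means (lines) against time in h, drawn at even steps; grey, WT control; red, WT IL-4; light blue, Stat6-/- control; dark blue, Stat6-/- IL-4. The red points separate upwards for Mrc1, Mgl2, Clec10a and Clec7a and downwards for Clec4d, Clec4e, Clec4n and Clec12a. Stat6-/- IL-4 and control points show no separation of that size.

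Mrc1, the mannose receptor (CD206), which takes up mannosylated glycoproteins, rose within 3 h and had come down by 24 h. At 6 h its control samples were at 101, 95.6, 110 and 131 FPKM and its IL-4 samples at 663, 688, 669 and 666 FPKM. All IL-4 samples were thus several-fold above all controls, with a ratio of means of 6.15 and a log2 fold change of 2.62 (SE 0.25, limma adjusted p = 3.15e-11). At 1 h the values were 111, 134, 151 and 227 FPKM against 73.0, 84.1, 102 and 138 FPKM, which overlapped and did not pass (log2 fold change 0.63, adjusted p = 0.119). Each 1 h IL-4 sample was nonetheless 1.48 to 1.65 times the control of the same replicate number. By 24 h the IL-4 samples had 253, 222 and 210 FPKM against 123, 150, 115 and 116 FPKM in controls, still without overlap but 0.86 on the log2 scale, under the 2-fold limit (adjusted p = 0.0073). The response at 24 h was smaller than at 6 h by a tested difference of -1.76 (SE 0.37, adjusted p = 0.000289). The annotation places the microRNA gene Mir511 inside Mrc1 on the same strand (chromosome 2, 14229414 to 14332023, mm10).

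Mgl2 and Clec10a are neighbouring genes, 29.1 kb apart on chromosome 11, and encode the galactose-type lectins CD301b and CD301a, which bind terminal galactose and N-acetylgalactosamine. Mgl2 went from near the detection limit to one of the middle levels. Its 6 h controls were at 1.18, 0.743, 1.77 and 3.07 FPKM and its 6 h IL-4 samples at 73.6, 104, 96.5 and 89.6 FPKM, a ratio of means of 53.8 (log2 fold change 5.16, SE 0.35, adjusted p = 3.4e-15). At 24 h the IL-4 samples reached 130, 118 and 107 FPKM against 0.933, 1.33, 1.46 and 2.49 FPKM, a ratio of means of 76.4. Mgl2 had already passed at 1 h, with 3.80, 4.20, 7.41 and 8.67 FPKM against 1.48, 1.06, 1.77 and 2.58 FPKM (log2 fold change 1.33, adjusted p = 0.00882). Without WT 1 h IL-4 replicate 4 the 1 h value was 1.16 with an adjusted p of 0.0542. The 1 h call was also lost in limma fits without the WT samples of replicate number 2, 3 or 4 (adjusted p = 0.0733, 0.12 and 0.0508). It was lost as well in an analysis of variance with Tukey's adjustment (adjusted p = 0.0678).

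Clec10a started higher and its rise was transient. Its 6 h controls held 22.4, 27.1, 32.3 and 34.4 FPKM and its 6 h IL-4 samples 170, 214, 190 and 177 FPKM, all above all controls (ratio of means 6.46, log2 fold change 2.66, SE 0.24, adjusted p = 6.17e-12). At 24 h the IL-4 samples were back at 47.8, 47.0 and 36.8 FPKM against 27.8, 28.5, 29.6 and 33.2 FPKM, a difference of 0.54 that did not pass (adjusted p = 0.075). The tested difference between the responses at 24 h and 6 h was -2.13 (SE 0.35, adjusted p = 1.02e-05), whereas for Mgl2 the same difference was 0.42 (95% interval -0.63 to 1.48, adjusted p = 0.586). Of 50-base stretches of their annotated transcripts, 12.2% of those of Mgl2 also occur in Clec10a and 8.49% of those of Clec10a in Mgl2. Part of the reads of either gene may thus not be assigned with certainty. The paper describes paired reads longer than these stretches, and the share of such reads was not measured.

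Clec7a, the beta-glucan receptor Dectin-1, which signals through Syk by its own motif, passed at all 4 times. Its 1 h controls had 78.5, 69.8, 78.2 and 74.9 FPKM and its 1 h IL-4 samples 259, 245, 257 and 301 FPKM. Every IL-4 sample was more than 3 times the control of the same replicate number, with ratios from 3.29 to 4.01. The log2 fold change was 1.80 at 1 h (SE 0.23, adjusted p = 8.21e-08), 2.14 at 3 h, 2.47 at 6 h and 2.09 at 24 h. The ratio of means at 1 h was 3.52, beside 3.49 for Mgl2, the other receptor that passed at that time. None of the 3 steps between successive times passed for Clec7a; the step from 1 to 3 h was 0.34 (95% interval -0.31 to 0.98). For Mrc1, Mgl2 and Clec10a the same step passed, at 1.48, 2.05 and 1.25, although each was lost in a fit without the WT samples of replicate number 3 (adjusted p = 0.0636, 0.0515 and 0.0775). That of Clec10a was also lost without number 1, 2 or 4 (adjusted p = 0.108, 0.101 and 0.062).

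The start sites of 7 of the 9 receptors have RefSeq promoter sequences, in build GRCm38.p6. Those of Clec7a (chr6:129472780-129473029, minus strand), Mgl2 (chr11:70130107-70130356, plus strand) and Clec4a2 (chr6:123122440-123122689, plus strand) are shown as a receptor that passed at all 4 times, the receptor with the highest ratio of means and the one that passed at no time, each as the 250 bases upstream of the start site, 5′ to 3′, with STAT-type motifs in capitals.
Clec7a: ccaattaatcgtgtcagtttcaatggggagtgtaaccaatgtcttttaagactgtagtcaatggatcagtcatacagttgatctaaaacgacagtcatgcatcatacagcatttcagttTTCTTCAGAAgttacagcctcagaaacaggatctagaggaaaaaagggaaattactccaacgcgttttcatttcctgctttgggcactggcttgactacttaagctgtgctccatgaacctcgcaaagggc
Mgl2: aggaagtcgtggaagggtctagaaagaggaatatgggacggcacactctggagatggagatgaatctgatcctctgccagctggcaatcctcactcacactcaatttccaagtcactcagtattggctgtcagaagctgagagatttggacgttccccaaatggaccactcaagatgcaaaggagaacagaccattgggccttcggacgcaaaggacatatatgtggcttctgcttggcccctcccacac
Clec4a2: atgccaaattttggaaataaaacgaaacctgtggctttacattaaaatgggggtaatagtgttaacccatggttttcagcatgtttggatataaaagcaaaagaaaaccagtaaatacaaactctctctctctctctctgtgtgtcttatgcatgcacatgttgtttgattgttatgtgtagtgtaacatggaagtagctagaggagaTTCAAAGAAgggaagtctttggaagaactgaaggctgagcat
In windows from 250 bases before to 50 bases after the start, TTC and GAA with 4 bases between them, the spacing that STAT6 prefers, was found in Clec7a alone of the 7, 131 to 122 bases upstream of the start base, and it occurs in 6.95% of all 32851 RefSeq mouse windows. The motif TTCNNNGAA, the spacing of other STATs, was found in Clec4a2 alone, 42 to 34 bases upstream (8.30% of all windows). The AP-1 motif TGANTCA was present in Clec4a2 and Clec12a (7.81% of all windows), and the PU.1 core GAGGAAGT in none of the 7 (3.20%). Both strands were searched, and each motif was counted on its own. Mrc1, Mgl2, Clec4d and Clec4e held none of these 4 motifs in this window. A match in letters is not a measured binding site.

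The activating receptors Clec4d, Clec4e and Clec4n lie close together on chromosome 6. There are 15.1 kb between Clec4n and Clec4d and 6.5 kb between Clec4d and Clec4e. Clec4a2 lies 85.8 kb from Clec4n. All 3 activating receptors fell with IL-4, Clec4e from 3 h and Clec4d and Clec4n from 6 h by the test. Their timing was not compared by a test. Clec4e, also called Mincle, which binds mycobacterial cord factor and a protein of dying cells, passed at 3, 6 and 24 h. At 3 h it had 41.4, 41.8, 44.5 and 43.2 FPKM in controls and 13.4, 13.0, 14.3 and 13.5 FPKM with IL-4, a log2 fold change of -1.59 (SE 0.10, adjusted p = 1.42e-15). Controls were 3.15 times the IL-4 mean, and the samples did not overlap. At 24 h its IL-4 samples were down to 2.55, 2.83 and 3.50 FPKM against 33.0, 30.0, 35.7 and 24.4 FPKM, 10.4-fold lower in the means (log2 fold change -3.00, adjusted p = 6.17e-23).

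For Clec4d the controls moved as well. Its 3 h values, 226, 226, 247 and 219 FPKM against 391, 416, 479 and 464 FPKM, did not overlap, but the difference of -0.92 (adjusted p = 0.0108) was under the 2-fold limit. At 6 h it had fallen to 115, 113, 103 and 127 FPKM against 447, 472, 583 and 589 FPKM (log2 fold change -2.17, SE 0.28, adjusted p = 4.52e-08). At 24 h the IL-4 samples stood at 213, 322 and 366 FPKM, above their 6 h level, and the controls at 925, 853, 1009 and 960 FPKM (log2 fold change -1.67, adjusted p = 1.68e-05). The change of the response from 6 to 24 h, 0.50 (95% interval -0.34 to 1.34), did not pass.

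Clec4n, the mannan receptor Dectin-2, varied more between samples than its neighbours. Its highest WT sample was a median of 2.12 times its lowest within a group, against 1.23 for Clec4d and 1.19 for Clec4e. At 6 h the controls had 48.4, 45.4, 82.8 and 103 FPKM and the IL-4 samples 16.5, 13.9, 21.1 and 29.4 FPKM (log2 fold change -1.71, SE 0.42, adjusted p = 0.00103). At 24 h they were 148, 104, 180 and 222 FPKM and 9.83, 21.0 and 37.3 FPKM (log2 fold change -2.93, SE 0.45, adjusted p = 1.13e-06). In both the IL-4 samples lay below all controls, and the ratio to the control of the same number was 0.254 to 0.340 at 6 h and 0.0942 to 0.168 at 24 h.

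The ITIM receptors differed in size of response. Clec12a fell at 6 h from 307, 356, 326 and 269 FPKM to 125, 132, 115 and 92.5 FPKM (log2 fold change -1.44, SE 0.28, adjusted p = 6.45e-05) and at 24 h from 244, 273, 226 and 161 FPKM to 89.1, 48.6 and 40.8 FPKM (-1.96, adjusted p = 1.15e-06). At 3 h its IL-4 samples were already below all controls, at 242, 237, 220 and 203 FPKM against 333, 346, 336 and 294 FPKM, but -0.54 did not pass (adjusted p = 0.167). Clec4a2 (DCIR) passed at no time. Its largest difference was at 6 h, 79.8, 78.2, 79.3 and 84.1 FPKM against 108, 100, 114 and 115 FPKM, non-overlapping and -0.43 on the log2 scale (adjusted p = 0.00612), under the 2-fold limit. Of its 50-base stretches, 6.83% occur in another gene, most often Clec4a4.

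Markers of other myeloid cells moved with the fallen receptors at 24 h. In WT the 3 monocyte markers summed to 30.4-61.9 FPKM in 24 h controls and 11.5-23.8 FPKM with IL-4, the 7 neutrophil markers to 454-631 and 226-328 FPKM, and the 6 macrophage markers to 3270-3770 and 2600-2630 FPKM. At 6 h the monocyte markers summed to 33.8-73.0 FPKM with IL-4 against 61.5-131 FPKM in controls, lower at both ends of the range though the samples overlapped. The neutrophil sums were 340-428 against 330-466 FPKM and the macrophage sums 2960-3270 against 3100-3370 FPKM. The part of these cells in the 6 h and 24 h differences was not tested. Of the 6 dendritic cell markers, 5 were below 1 FPKM in every sample, and Ccr7 reached 6.63 FPKM. Their sum was 0.682-4.6 FPKM in WT and 1.78-7.93 FPKM in Stat6-/- samples. In all 9 Stat6-/- groups it was 1.86 to 2.79 times higher in replicate 2. The 5 mast cell and basophil markers summed to 0.486-1.9 FPKM in WT and 1.71-4.13 FPKM in Stat6-/- samples.

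In Stat6-/- BMDMs no receptor passed at any time after IL-4 by limma, and none had an unadjusted p under 0.05 or passed in a per-locus analysis of variance with Tukey's adjustment. None of the 11146 loci passed either (0% at each time), and 0.458%, 1.18%, 0.79% and 0.332% had an unadjusted p under 0.05 at the successive times. These shares were below the rate of 0.05 expected without any response, so this unpaired test was cautious and could miss small responses. In a fit with the replicate number as a block, 1 locus passed at each of 1, 3 and 6 h and 0 at 24 h. No receptor passed in that fit. The 36 log2 fold changes, 9 receptors at 4 times, lay between -0.22 and 0.49. At 6 h Mgl2 had 4.48 and 1.41 FPKM in controls and 5.96 and 1.75 FPKM with IL-4, and Clec7a 65.4 and 40.8 FPKM against 69.4 and 44.2 FPKM. Clec4e was most tightly bounded, with 13.4 and 12.7 FPKM in 24 h controls and 14.1 and 14.5 FPKM with IL-4 (log2 fold change 0.12, 95% interval -0.18 to 0.42). For the others 2 samples a group, not taken as pairs, left wide intervals, and 25 of the 36 lay within 2-fold in both directions. For Clec4n the widest reached from -0.79 to 1.61 at 6 h. Set against the control of the same replicate number, the 6 h ratios ran from 0.861 for Clec4a2 to 1.52 for Clec10a. Clec10a was higher with IL-4 in both pairs at every time, with 1.22 and 1.65 at 3 h. Mrc1, Mgl2 and Clec4n were higher in both at 3, 6 and 24 h, and Clec4d lower in both at 1, 6 and 24 h. Clec4e was lower in both at 1, 3 and 6 h and higher in both at 24 h. Its 1 h ratios were 0.808 and 0.905, beside 0.782 to 0.913 in WT. Clec12a was lower in both at 1 and 6 h. Mrc1, Clec7a and Clec4a2 were lower in both at 1 h, and Clec7a higher in both at 6 h. These ratios were not tested.

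**Figure D4:**
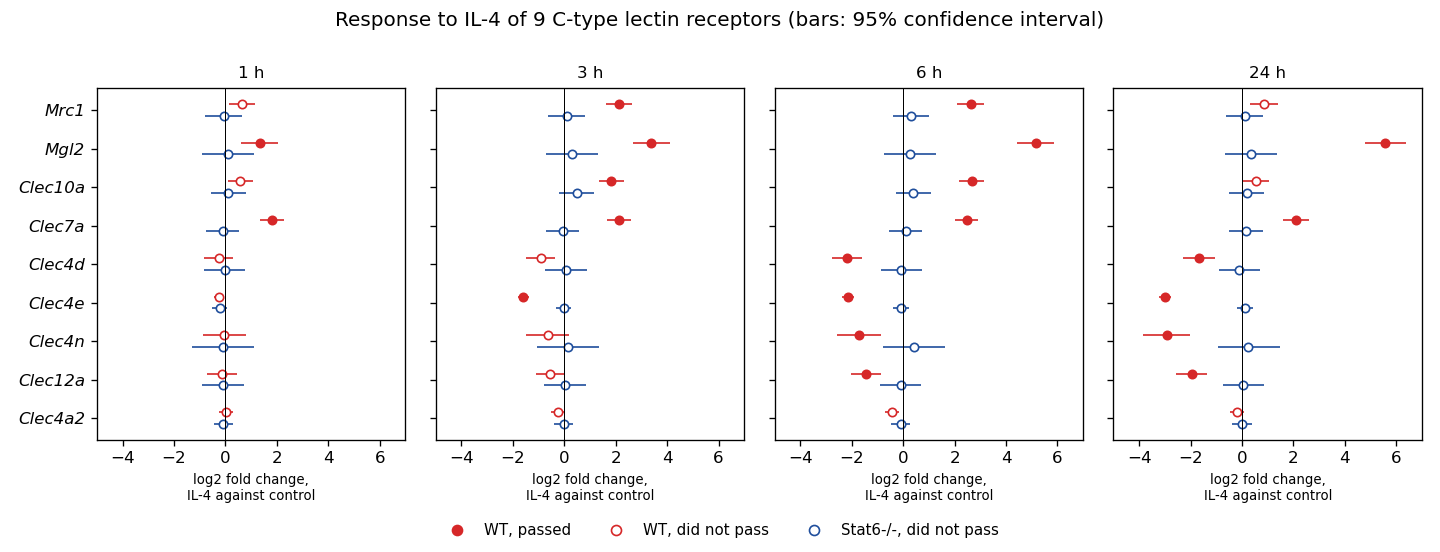
Log2 fold change of IL-4 against time-matched control (x) with its 95% confidence interval for each receptor (y) at 1, 3, 6 and 24 h in WT (red) and Stat6-/- (blue) BMDMs; filled points passed the test. In Stat6-/- all points lie between -0.22 and 0.49 and none passed.

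The difference between the WT and the Stat6-/- response was tested as an interaction. It passed for 1 receptor at 1 h (1.25% of all loci), 5 at 3 h (3.48%), 7 at 6 h (4.41%) and 6 at 24 h (6.85%). At 6 h these were Mgl2 with a difference of 4.89 (SE 0.61, adjusted p = 8.61e-08), Clec7a with 2.37, Mrc1 with 2.31, Clec10a with 2.27, Clec4e with -2.07 (SE 0.18, adjusted p = 1.68e-11), Clec4d with -2.10 and Clec4n with -2.12. Clec12a missed at 6 h (-1.33, adjusted p = 0.0559) and passed at 24 h (-2.02, adjusted p = 0.00234). In a fit with the replicate number as a block, Clec12a also passed at 6 h (SE 0.23, adjusted p = 2.58e-05). Of the 19 passes, 12 held under every alternative, and those of Mgl2, Mrc1 and Clec4e, of Clec7a at 3 and 6 h, of Clec10a at 6 h and of Clec4n at 24 h were among them. The other 7 were Clec7a at 1 and 24 h, Clec10a at 3 h, Clec4d at 6 and 24 h, Clec4n at 6 h and Clec12a at 24 h.

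Each of these 7 was lost in at least 1 other fit, without some libraries or made in another way. Without 1 Stat6-/- library, the IL-4 and control groups no longer held the same replicate numbers, and the replicates stood apart. The part of this in the changes was not tested. Clec4d at 24 h was -1.58 (adjusted p = 0.017) and became -0.87 without Stat6-/- 24 h IL-4 replicate 1 (adjusted p = 0.203), -0.90 without Stat6-/- 24 h control replicate 2 (adjusted p = 0.191) and -1.35 without WT 24 h IL-4 replicate 2 (adjusted p = 0.055). At 6 h it went from -2.10 to -1.52 without Stat6-/- 6 h IL-4 replicate 1 (adjusted p = 0.0544) and to -1.53 without Stat6-/- 6 h control replicate 2 (adjusted p = 0.0518). Clec4n at 6 h, -2.12, became -1.64 and -1.47 without the same libraries (adjusted p = 0.216 and 0.268), and also missed without WT 6 h IL-4 replicate 1 or 2 or WT 6 h control replicate 3 or 4 (adjusted p = 0.0612, 0.0708, 0.066 and 0.0763). Clec12a at 6 h, which had missed, passed without either of the same Stat6-/- libraries (-1.85, adjusted p = 0.0178, and -1.77, adjusted p = 0.0247).

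Clec12a at 24 h became -1.19 without Stat6-/- 24 h IL-4 replicate 2 (adjusted p = 0.117) and -1.27 without Stat6-/- 24 h control replicate 1 (adjusted p = 0.107). Clec7a at 24 h, 1.94, became 1.15 without that same control (adjusted p = 0.0391) and missed in a fit of the samples compared only (adjusted p = 0.0515). At 1 h its 1.91 became 1.51 without Stat6-/- 1 h control replicate 1 (adjusted p = 0.0615). Clec10a at 3 h, 1.34, became 0.82 without Stat6-/- 3 h control replicate 1 (adjusted p = 0.338), 1.03 without Stat6-/- 3 h IL-4 replicate 2 (adjusted p = 0.204), and 1.26 and 1.27 without WT 3 h control replicate 1 and 2 (adjusted p = 0.0531 and 0.0504). With all libraries of Stat6-/- replicate 1 left out, Clec4d was -2.09 at 6 h and -1.55 at 24 h, and Clec12a -2.09 at 24 h. Clec7a was then 1.81 at 1 h and 1.69 at 24 h, Clec10a 1.12 at 3 h and Clec4n -2.29 at 6 h. Without replicate 2 the same values were, in this order, -2.11, -1.6, -1.94, 2.0, 2.2, 1.55 and -1.95. The spread of the lone sample of a group was then taken from the other groups.

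Without IL-4 the genotypes differed less. No receptor passed between Stat6-/- and WT controls at 0, 1, 3 or 6 h by limma, where 0.35%, 0.26%, 0.126% and 0.0449% of all loci passed. At an unadjusted p under 0.05 there were 2, 2, 3 and 3 receptors, beside 14%, 11.9%, 10.5% and 9.43% of all loci. At 24 h 1 passed (0.0269% of all loci). That was Clec4e, with 13.4 and 12.7 FPKM in Stat6-/- against 33.0, 30.0, 35.7 and 24.4 FPKM in WT (log2 fold change -1.16, SE 0.13, adjusted p = 3.14e-07). In a fit of these 6 samples only the log2 fold change was the same, -1.16 (SE 0.15), but it was no longer called (adjusted p = 0.585). Clec10a was higher in Stat6-/- controls by 0.64 to 0.84 on the log2 scale without passing. At 0 h Stat6-/- replicates 1 and 2 had 80.4 and 33.8 FPKM, against 33.1, 27.0, 34.5 and 39.0 FPKM in WT. With Stat6-/- replicate 2, the lower one in all 9 groups, left out, the differences were 1.1 to 1.3. These rest on 1 Stat6-/- sample a group. Clec7a at 24 h, at a log2 fold change of -0.26 without passing, became -1.05 without Stat6-/- 24 h control replicate 1 (adjusted p = 0.0399). Clec4a2 was 0.60 higher at 0 h, with 143 and 120 FPKM against 68.0, 88.4, 95.8 and 93.3 FPKM, under the 2-fold limit (adjusted p = 0.033).

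Time in culture alone moved part of the family. In WT controls no receptor passed at 1, 3 or 6 h against 0 h, where 0%, 0.00897% and 0.0179% of all loci did by limma. At an unadjusted p under 0.05 there were 0, 0 and 1 receptors, beside 11.7%, 6.48% and 8.1% of all loci. At 24 h 2 passed, both higher (1.13% of all loci passed in either direction). Clec4d rose from 377, 379, 445 and 435 FPKM at 0 h to 925, 853, 1009 and 960 FPKM (log2 fold change 1.20, SE 0.28, adjusted p = 0.0028). Clec4n rose from 46.0, 32.3, 55.7 and 70.9 FPKM to 148, 104, 180 and 222 FPKM (1.66, SE 0.42, adjusted p = 0.00516), a call lost without the WT samples of replicate number 1 or 3 (adjusted p = 0.056 and 0.0599). At 24 h the highest IL-4 sample of Clec4d, at 366 FPKM, lay below the lowest 0 h sample, at 377 FPKM, and well under the 24 h controls. In Stat6-/- controls Clec4e passed at 24 h against 0 h, 13.4 and 12.7 FPKM against 36.3 in both samples (-1.41, adjusted p = 1.82e-07, 0.161% of all loci), and lost the call in a fit of these samples only, at the same -1.41 (SE 0.12, adjusted p = 0.972). IL-4 and control comparisons at 24 h and the time comparison share the 24 h controls.

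Among 40 other C-type lectin genes, 15 reached 1 FPKM, and 5 of these passed at some time in WT, 1 higher and 4 lower, a share of 33.3% beside 12.8% of all loci. Their median log2 fold change was 0.03, 0.08, 0.12 and -0.39 at the successive times. Cd302, a small lectin of adhesion and uptake, fell at 24 h from 53.6 ± 2.23 FPKM (SD, n = 4) to 12.7 ± 1.98 FPKM (n = 3), a log2 fold change of -2.0 (adjusted p = 4.7e-09). Cd93 fell at 6 h from 91.7 ± 12.2 to 25.4 ± 2.96 FPKM (-1.81, adjusted p = 2.32e-17). Clec4a1, next in family to Clec4a2, fell only at 24 h among the 4 times, from 390 ± 37.9 to 165 ± 12.8 FPKM (-1.24, adjusted p = 2.01e-07). Colec12, a scavenger lectin, fell at 6 h from 8.05 ± 1.34 to 2.91 ± 0.235 FPKM (-1.20, adjusted p = 0.00232). Olr1, the oxidized LDL receptor, rose from 0.0621 ± 0.0298 to 1.75 ± 0.138 FPKM at 3 h (1.37, adjusted p = 1.01e-20). Its means stayed at or below 0.164 FPKM in the time-matched WT controls and in Stat6-/- after 0 h. It thus met the filter of 1 FPKM through the WT IL-4 samples where it was high, and its pass is no independent support for the share.

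Of 20 genes that carry signals from these receptors, all reached 1 FPKM and 6 passed at some time in WT, 3 in each direction (30.0% beside 12.8% of all loci), with medians of -0.11, -0.25, -0.30 and -0.49 at the successive times. Rel, an NF-kB subunit downstream of Syk and CARD9, rose at 1 h from 4.54 ± 0.515 to 23.5 ± 5.57 FPKM (2.12, adjusted p = 1.53e-09). Prkcd, the kinase that links Syk to CARD9, rose at 6 h from 163 ± 12.3 to 362 ± 16.0 FPKM (1.15, adjusted p = 4.09e-14), and Malt1, the protease bound to BCL10, rose at 24 h from 7.26 ± 1.10 to 28.9 ± 2.93 FPKM (1.86, adjusted p = 4.36e-11). The SRC-family kinase Lyn fell at 6 h, with a log2 fold change of -1.05 (adjusted p = 4.59e-05). Lsp1, an actin-binding partner of Dectin-1 signalling, fell at 24 h from 128 ± 29.4 to 49.0 ± 18.8 FPKM (-1.40, adjusted p = 0.000444). None of either list passed in Stat6-/- after IL-4.

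The genes most like each receptor were ranked by Pearson's r of log2(FPKM + 1) over the 18 group means, among tested loci with unique symbols. The genes compared are read from the same 53 libraries and the same 18 groups. A response that many genes share, such as that to IL-4 in WT, therefore enters every r, and r is a description. Clec7a was closest to Plekhf1 (r = 0.989) and Dusp4, and Mgl2 to Arg1 (r = 0.982), Rrp8 and Il4i1. Mrc1 was closest to Sema6d (r = 0.978), C030046E11Rik and Appl1, and Clec10a to Batf (r = 0.931), Snx6 and Trub1. Among the fallen receptors, Clec12a was closest to I830012O16Rik (r = 0.985), Pira2 and Lilra6, Clec4e to Gdpd5 (r = 0.975), Pira2 and Ttll1, Clec4n to Abcc3 (r = 0.963), Myom1 and Atp8a1, and Clec4d to Slc40a1 (r = 0.951), S1pr1 and Zfyve28. Clec4a2 was closest to Tspan3 (r = 0.977), then to Clec4a4, with which it shares sequence, and Syn1. Between receptors, Clec4e and Clec12a were most alike (r = 0.94). Among neighbouring receptors r was 0.85 for Clec4d and Clec4n, 0.46 for Clec4d and Clec4e, and 0.65 for Mgl2 and Clec10a. It was 0.77 for Clec4n and Clec4a2, and -0.70 for Clec12a and Clec7a, which lie 96.3 kb apart on chromosome 6.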

How the data were processed

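Per the labels and the methods of the study, polyA libraries (TruSeq) were aligned by the authors with TopHat2 2.0.7 and quantified with Cufflinks 2.0.2 on mm10; the gene annotation is not given in the sources used here. The deposited values are FPKM per locus, 1 table per sample; they are not counts, so total depth is unknown here. Values under 1e-06 were set to 0 (4316 values). log2(FPKM + 1) was fitted with limma 3.58.1 in R 4.3.3 (group means, trend, 35 residual degrees of freedom), tested on simulated data first. Replicates are separate samples of individual animals; no pair of samples was identical. Among the tested loci, 81 share a symbol. Named were the 9 receptors, up to 10 other lectin and 8 signalling genes with the largest change among those passing in WT, and the 3 genes most like each receptor; 2 genes that this rule names are not reported here. The receptors and gene lists were chosen with earlier results of these data known. Alternatives were a pseudocount of 0.1, no filter, upper-quartile and quantile scaling, a replicate block, only the samples compared, analysis of variance with Tukey's adjustment, and leaving out libraries. Promoter windows are from RefSeq; shared transcript sequence was searched in the GENCODE mouse transcripts.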

Additional observations from a re-analysis of the deposited data

Results flagged for a closer look

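In 3 of 72 WT sets of 4 samples 1 sample lay far from the other 3 (Dixon's criterion; chance gives about 1 in 20 sets, 3.6 here). Clec7a in WT 0 h control replicate 1 was at 56.0 FPKM against 71.7-74.9 FPKM, Clec4e in WT 1 h control replicate 4 at 42.8 FPKM against 38.9-39.2 FPKM, and Clec4a2 in WT 24 h control replicate 4 at 107 FPKM against 131-133 FPKM.

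The response to IL-4 differed between WT and Stat6-/- BMDMs (interaction term, limma) in 19 of 36 tests. The difference in log2 fold change was 1.91 for Clec7a at 1 h. At 3 h it was 3.08 for Mgl2, 2.19 for Clec7a, 2.02 for Mrc1, 1.34 for Clec10a and -1.55 for Clec4e. At 6 h it was 4.89 for Mgl2, 2.37 for Clec7a, 2.31 for Mrc1, 2.27 for Clec10a, -2.07 for Clec4e, -2.10 for Clec4d and -2.12 for Clec4n. At 24 h it was 5.22 for Mgl2, 1.94 for Clec7a, -1.58 for Clec4d, -2.02 for Clec12a, -3.12 for Clec4e and -3.18 for Clec4n.

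Within WT the response differed between successive times in 7 tests, with differences of 1.48 for Mrc1, 2.05 for Mgl2, 1.25 for Clec10a and -1.34 for Clec4e from 1 to 3 h, 1.78 for Mgl2 from 3 to 6 h, and -1.76 for Mrc1 and -2.13 for Clec10a from 6 to 24 h. The Mgl2 step from 3 to 6 h was lost without any 1 of 10 libraries (WT 3 h IL-4 replicates 1 and 2, WT 3 h control replicates 3 and 4, WT 6 h IL-4 replicates 2, 3 and 4, WT 6 h control replicates 1, 2 and 3), with values of 1.59 to 1.82 and adjusted p of 0.0504 to 0.0985.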

How the results depend on the processing

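Of 225 receptor values, none that passed changed direction under any alternative. The count of receptors passing in WT at 3, 6 and 24 h stayed at 5, 8 and 6 when libraries were left out, and that at 1 h ranged from 1 to 2. The ranges were 0 to 1, 4 to 6, 6 to 8 and 5 to 6 for the interaction at 1, 3, 6 and 24 h. They were 1 to 4, 0 to 1 and 2 to 2 for the WT steps from 1 to 3, 3 to 6 and 6 to 24 h, 1 to 2 for WT controls at 24 h against 0 h, 0 to 1 for the genotypes in controls at 0, 1, 3 and 6 h each and 1 to 3 at 24 h, and 1 to 2 for Stat6-/- controls at 24 h against 0 h. With a pseudocount of 0.1, and with no filter, 0 receptors passed in the WT step from 3 to 6 h. In the interaction Clec10a at 3 h and Clec4n at 6 h missed with no filter (adjusted p = 0.0589 and 0.0816) and with only the samples compared (adjusted p = 0.0522 and 0.0547). With only the samples compared, the interaction at 24 h had 3 passes, the genotypes at 24 h and the Stat6-/- time comparison 0 each, and the step from 3 to 6 h 2. With Tukey's adjustment 1 receptor passed in WT at 1 h (Clec7a). The cause was not tested. Leaving out all libraries of a Stat6-/- replicate number was chosen after seeing the data. Upper-quartile and quantile scaling changed 1 call, the interaction of Clec12a at 6 h, which passed (adjusted p = 0.0465 and 0.048).

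Replicate numbers are not said to mark one animal across groups. Deviations from the group means correlated between same-numbered samples by a mean r of 0.714 in Stat6-/- (72 of 72 pairs above 0.1), where a group has only 2 numbers, and by 0.223 in WT (111 of 136 pairs above 0.1, lowest -0.145). Since WT did not meet 0.1 in every pair and the interaction uses both genotypes, the numbers were not taken as pairs. In the comparisons within Stat6-/-, where all 72 pairs were above 0.1, the difference between replicates thus stayed in the error. This widens their intervals. With the replicate block 2 receptors passed in the interaction at 1 h (Clec7a and Mgl2) and 3 in the WT step from 3 to 6 h (Mgl2, Clec4d and Clec4n). Clec12a passed in the interaction at 6 h (-1.33, SE 0.23 against 0.49 without the block, adjusted p = 2.58e-05) and Clec4n in the step from 6 to 24 h. Of the 180 values it could be fitted for, the block changed no other call; it could not be fitted for the genotypes in controls, whose numbers are nested in genotype.

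FPKM without counts give no counting error, so precision rests on 4, 3 or 2 samples a group. In Stat6-/- the 2 samples, not taken as pairs, left intervals beyond 2-fold for 11 of 36 responses.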
